A study of Homo sapiens with 6 samples.

Results

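E2F transcription factors and the pocket proteins that hold them in check were measured by bulk RNA-seq in COV434 cells with and without 4HC, which the study names as 4-hydroxycyclophosphamide, an active metabolite of cyclophosphamide (CTX). The members were E2F1, E2F2, E2F3, E2F4, E2F5, E2F7, E2F8, RB1, RBL1 and RBL2, found by gene symbol as 10 of the 16798 genes in the deposited table. COV434 is an immortalized human cell line whose samples are labelled as granulosa cells, the cells that surround the oocyte. Total RNA came from 3 control samples, with the genotype label WT and no treatment label of their own, and from 3 samples given 15 µM 4HC for 24 h, labelled CTX and CTX-Induced. All 6 samples were of the same line. The labels do not say whether the 3 samples of a group were grown separately, so that p-values measure only the spread between these samples.

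The expected counts of a sample, which are estimates of its reads per gene, summed to between 16133786 and 16702316. Of 12 granulosa marker genes, 11 were in the table, and 8 of these, FOXL2, FSHR and CYP19A1 among them, stayed under 1 TPM (a level per transcript length that sums to 1e+06 in each sample) in every sample. AMH (5.34 TPM in control and 5.39 TPM in 4HC) and HSD17B1 (22.5 and 22.2 TPM) were above that level. INHA exceeded it only in control replicates 1 and 2 (1.73 and 1.08 TPM) and lay between 0.72 and 0.99 TPM in the other samples. Of 4 stromal marker genes, LUM stood at 43.2 and 42.1 TPM and DCN at 11.5 and 11.1 TPM. The other stromal markers, COL1A1 and PDGFRA, stayed under 1 TPM in every sample. Only 3 granulosa, 3 stromal, 1 epithelial and 2 leukocyte markers could be tested between groups, and none passed. No endothelial marker could be tested. In bulk RNA, fewer cells of a type and less RNA per cell cannot be told apart, and neither can more cells in a phase of the cell cycle and more RNA per cell.

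E2F factors bind a common DNA motif in the promoters of genes for DNA synthesis and cell division. E2F1, E2F2 and E2F3 are the activators, which switch these genes on when a cell leaves G1. E2F4 and E2F5 are repressors that act through pocket proteins, whereas E2F7 and E2F8 are atypical repressors that bind DNA without a DP partner and without pocket proteins. RB1 mainly binds the activators, and its relatives RBL1 (p107) and RBL2 (p130) bind E2F4 and E2F5, with RBL2 and RBL1 also part of the DREAM complex that silences cell cycle genes in resting cells. Cyclin-dependent kinases release E2F by phosphorylating the pocket proteins. Several E2F genes are themselves E2F targets, and E2F7 is also known as a target of p53.

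Promoters are shown because the annotated starts that were searched differ in whether an E2F motif lies before them. Some of these starts lie inside the gene, as given below. RefSeq promoters (GRCh38.p14) were at hand for 8 of the 10 members, and E2F5 and E2F8 had no entry. The E2F motif was searched as TTTCGCGC, TTTGGCGC, TTTCCCGC and TTTGCCGC on both strands within the 250 bases before each start. It was found before a searched start in 4 of the 8 members, E2F1, E2F2, E2F3 and RBL1. Counted per start rather than per gene, 2.79% of all 35116 promoters of the same length held it. Matches are in capitals in the 100 bases that precede the start of each of these genes, given 5′ to 3′ on the gene's strand.
E2F1, chr20:33686386-33686485, minus strand: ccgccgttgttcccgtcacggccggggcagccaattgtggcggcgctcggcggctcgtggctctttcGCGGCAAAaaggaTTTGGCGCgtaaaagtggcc
E2F2, chr1:23531234-23531333, minus strand: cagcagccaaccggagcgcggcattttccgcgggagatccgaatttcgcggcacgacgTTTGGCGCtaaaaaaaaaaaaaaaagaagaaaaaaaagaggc
E2F3, chr6:20401779-20401878, plus strand: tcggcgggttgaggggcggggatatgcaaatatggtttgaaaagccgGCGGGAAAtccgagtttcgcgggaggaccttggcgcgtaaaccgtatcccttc
RBL1, chr20:37095998-37096097, minus strand: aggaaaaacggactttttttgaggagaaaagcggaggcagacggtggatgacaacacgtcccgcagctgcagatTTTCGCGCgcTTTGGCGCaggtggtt

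E2F1 and RBL1 each held 2 matches, the nearest beginning 20 and 16 bases before the start. E2F2 held 1 match at 42 bases and E2F3 held 1 at 53 bases, while a second annotated start of E2F3 held none. E2F4, E2F7, RB1 and RBL2 held no match in these windows. Some of the annotated starts lie inside the span that the deposited table gives for the gene, by 172699 bases in RB1, 60949 and 62097 in RBL2, 14167 in E2F7, 1181 in RBL1 and 1056 and 2791 in E2F3, whereas those of E2F1 and E2F4 lie at its edge. The windows of the former are therefore those of these starts only. CCAAT, a box bound by the factor NF-Y, was searched on both strands in the same windows. It was found 4 times before the E2F7 start, 4 times before the first start of E2F3, 3 times before that of E2F1 and once before the second start of RBL2. At least 1 copy was found in 32.0% of all promoters. The E2F7 window is shown as an example without an E2F match, with CCAAT in capitals, all copies on the opposite strand.
E2F7, chr12:77065570-77065819, minus strand: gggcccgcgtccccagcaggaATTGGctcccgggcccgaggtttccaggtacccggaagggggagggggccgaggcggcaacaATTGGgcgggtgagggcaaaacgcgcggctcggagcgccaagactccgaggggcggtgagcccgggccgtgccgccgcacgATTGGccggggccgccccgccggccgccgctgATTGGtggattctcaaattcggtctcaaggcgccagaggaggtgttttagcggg

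The levels of the members were first set against each other in the controls, as deposited TPM (mean ± SD, n = 3). E2F4 (50.2 ± 2.18) and E2F5 (47.4 ± 1.44) were the most abundant, and their ranges overlapped. RBL2 followed at 41.4 ± 0.435, then E2F1 at 36.4 ± 1.14, E2F2 at 29.4 ± 1.68 and RB1 at 24.5 ± 0.397, each clear of its neighbours. E2F3 stood at 13.4 ± 0.609, RBL1 at 12.1 ± 0.518 and E2F8 at 11.5 ± 0.696, of which the last pair overlapped. E2F7 was the least abundant of the 10 at 9.17 ± 0.443 TPM. In 4HC the order changed at both ends. E2F7 moved from rank 10 to rank 7 with 21.5 ± 0.386 TPM, clear of RB1 above it (30.0 ± 0.894) and RBL1 below it (14.8 ± 0.761). E2F5 moved from rank 2 to rank 4 with 35.7 ± 2.12 TPM, where it overlapped E2F2 (33.5 ± 1.20). E2F4 stayed at rank 1 (44.9 ± 0.107), and RBL2 and E2F1 at ranks 2 and 3 overlapped, as did RBL1, E2F3 and E2F8 at the lower end.

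All 10 members had enough counts to be tested between 4HC and control, together with 12368 genes in all (edgeR's quasi-likelihood test, Benjamini-Hochberg adjustment over all genes tested). With 0.05 as the limit of the adjusted p-value, 6 of the 10 rose and 2 fell. For comparison, 36.4% of all genes tested were called, 19.2% higher and 17.1% lower in 4HC. The groups did not overlap in 9 of the 10 members, 7 higher and 2 lower in 4HC, against 45.3% of all genes tested, 23.4% higher and 21.9% lower. An exact permutation test of 3 samples against 3 cannot give a p-value below 0.1, and none is given for single members. The median log2 fold change was 0.21 over the members and 0.00 over all genes tested. E2F7 alone had a fold change of at least 2 with a p-value under 0.05 before adjustment (edgeR), as did 1.15% of all genes tested. Values below are TMM-normalized counts per 1e+06 counts (CPM), which are not per length and serve to compare samples within a gene.

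**Figure D1:**
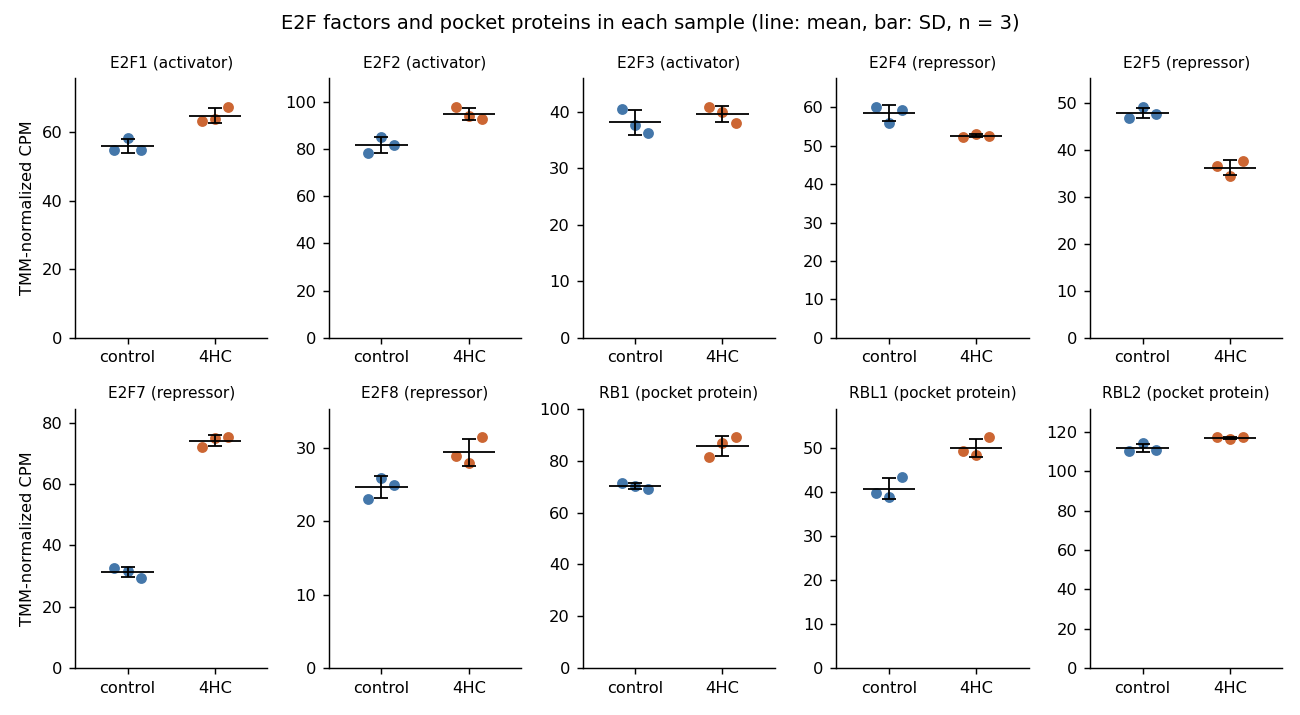
Expression of each member (TMM-normalized CPM, y axis from 0) in the 3 control and 3 4HC samples, with the mean as a line and the SD as a bar. E2F7 rises from 29.5 to 32.6 CPM in the controls to 72.0 to 75.2 CPM in 4HC, and only E2F3 has overlapping groups.

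Among the activators, E2F1 and E2F2 rose by a similar amount and E2F3 did not pass the test. E2F1 (NCBI Gene 1869, chromosome 20 of GRCh38, 33674528 to 33686385) read 54.7, 58.3 and 54.7 CPM in the control samples 1 to 3, against 63.1, 63.7 and 67.2 CPM in the treated samples 1 to 3. Every 4HC sample lay above every control. On the log2 scale it changed by 0.21 ± 0.049 (SE, adjusted p = 0.000493, edgeR), a fold change of 1.16.

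E2F2 (NCBI Gene 1870) read 78.2, 85.2 and 81.8 CPM in the controls, against 97.8, 94.2 and 92.7 CPM in 4HC. The groups were again separate, with a log2 fold change of 0.22 ± 0.0439 (SE, adjusted p = 8.4e-05, edgeR). The deposited table does not place E2F2 on a reference chromosome, so that its gene coordinates are not given. E2F3 (NCBI Gene 1871, chromosome 6, 20400823 to 20493714) read 40.6, 37.6 and 36.2 CPM in the controls, against 40.8, 39.9 and 38.0 CPM in 4HC. These ranges overlapped. Its log2 fold change was 0.05 with a 95% confidence interval of -0.06 to 0.17 (adjusted p = 0.488, edgeR).

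The 4 repressors all passed the test, in opposite directions. The pair that acts through pocket proteins fell, and the atypical pair rose. E2F4 (NCBI Gene 1874, chromosome 16, 67192155 to 67198918) read 60.0, 56.0 and 59.4 CPM in the controls, against 52.3, 53.0 and 52.5 CPM in 4HC. All 4HC samples were below all controls. This gave a log2 fold change of -0.15 ± 0.0496 (SE, adjusted p = 0.0123, edgeR). This was the least stable of the calls, since it was lost without control replicate 1 (adjusted p = 0.0614, edgeR) and without control replicate 3 (adjusted p = 0.0545, edgeR).

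E2F5 (NCBI Gene 1875, chromosome 8, 85177154 to 85214518) showed the larger decrease. It read 47.0, 49.2 and 47.7 CPM in the controls, against 36.6, 34.5 and 37.6 CPM in 4HC, without overlap. Its log2 fold change was -0.40 ± 0.0548 (SE, adjusted p = 3.39e-08, edgeR), which left 0.756 of the control level. The expected counts of E2F5 were fractional in all 6 samples, as happens when an estimate divides reads between features. RBL2 had fractional counts in 5 samples, and the other 8 members had whole counts throughout.

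E2F7 (NCBI Gene 144455, chromosome 12, 76956974 to 77079736) had the largest change of the members. It read 32.6, 31.6 and 29.5 CPM in the controls, against 72.0, 75.1 and 75.2 CPM in 4HC. The gap between the groups was far wider than the spread within them (SD 1.59 in control and 1.83 in 4HC, n = 3). The log2 fold change was 1.25 ± 0.053 (SE, adjusted p = 4.51e-26, edgeR), a fold change of 2.37 with a 95% confidence interval of 2.20 to 2.55. In absolute size it exceeded 99.4% of all genes tested. E2F8 (NCBI Gene 79733, chromosome 11, 19224063 to 19250307) is the closest relative of E2F7 and had a smaller fold change, although the difference between them was not tested. It read 23.0, 25.9 and 25.0 CPM in the controls, against 28.9, 27.9 and 31.4 CPM in 4HC, with a log2 fold change of 0.25 ± 0.0655 (SE, adjusted p = 0.00161, edgeR). The groups did not overlap.

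**Figure D2:**
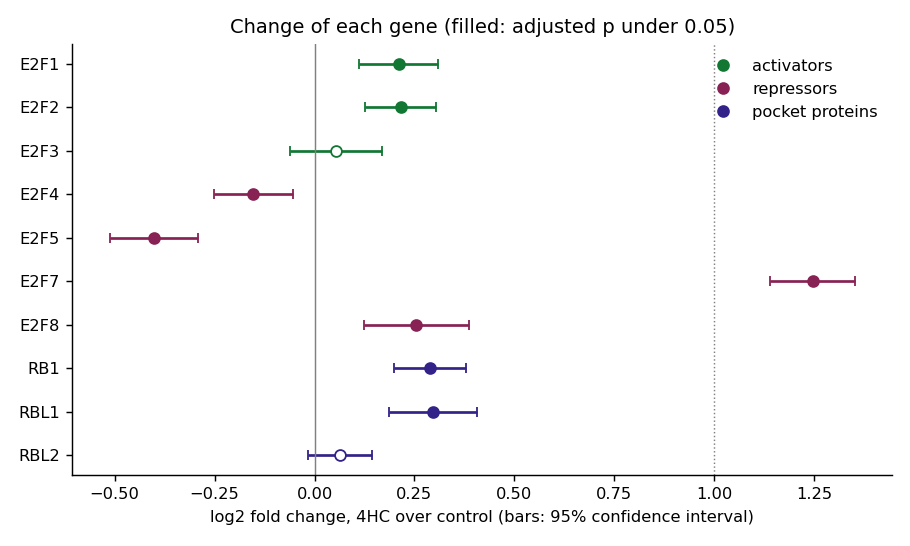
log2 fold change of each member, 4HC over control (x axis), with its 95% confidence interval from edgeR, coloured by role and filled where the adjusted p-value is under 0.05. E2F7 lies at 1.25, past a fold change of 2 (dotted line), E2F4 and E2F5 lie below 0, and the intervals of E2F3 and RBL2 include 0.

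Of the pocket proteins, RB1 and RBL1 rose and RBL2 did not pass the test. RB1 (NCBI Gene 5925, chromosome 13, 48303751 to 48481890) read 71.4, 70.2 and 69.0 CPM in the controls, against 81.4, 86.8 and 89.1 CPM in 4HC. The log2 fold change was 0.29 ± 0.0454 (SE, adjusted p = 8.71e-07, edgeR). RBL1 (NCBI Gene 5933, chromosome 20, 36996349 to 37097178) read 39.9, 39.0 and 43.6 CPM in the controls, against 49.5, 48.5 and 52.5 CPM in 4HC. Its log2 fold change was 0.30 ± 0.0547 (SE, adjusted p = 1.74e-05, edgeR), almost the same as that of RB1. In both genes the groups were separate.

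RBL2 (NCBI Gene 5934, chromosome 16, 53373522 to 53491648) read 110.5, 114 and 111 CPM in the controls, against 117 CPM in each 4HC sample. The 4HC samples were all above the controls, yet by little more than the spread of the controls (SD 2.12). The log2 fold change was 0.06 with a 95% confidence interval of -0.02 to 0.14 (adjusted p = 0.21, edgeR). As shares of the summed pocket protein TPM, RB1 went from 31.4% ± 0.65 to 34.1% ± 0.715, RBL1 from 15.5% ± 0.603 to 16.8% ± 0.631 and RBL2 from 53.1% ± 0.44 to 49.1% ± 1.22 (SD, n = 3). RBL2 remained the most abundant pocket protein transcript in every sample.

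Activators were then compared with repressors, using the ratio of their summed TPM in each sample, which is a description without a test. The activators E2F1, E2F2 and E2F3 together went from 79.1 ± 2.33 to 89.3 ± 1.72 TPM. The 4 repressors together stood at 118 ± 0.538 TPM in control and 116 ± 2.68 TPM in 4HC, with overlapping groups. The activators thus amounted to 0.650, 0.693 and 0.665 times the repressors in the controls and 0.779, 0.774 and 0.760 times in 4HC, a log2 change of 0.20. This direction depended on the scale, because on CPM, which is not per length, the same ratio went from 1.08 ± 0.0264 to 1.04 ± 0.0283, a log2 change of -0.0643.

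The makeup of the repressor sum changed more than the sum itself. E2F4 and E2F5 together went from 97.6 ± 0.952 to 80.6 ± 2.08 TPM, and E2F7 and E2F8 together from 20.7 ± 0.553 to 35.3 ± 1.03 TPM. The groups did not overlap in either sum. E2F7 supplied 8.06%, 7.82% and 7.38% of the repressor TPM in the controls and 18.1%, 19.2% and 18.4% in 4HC. E2F5 supplied 40.1% ± 1.27 and 30.8% ± 1.19, and E2F4 had the largest mean share in both groups, 42.5% ± 1.76 and 38.8% ± 0.969, although E2F5 was above it in control replicate 2.

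The direction of the comparison of activators with repressors turned on which repressors were counted. Against E2F4 and E2F5 the activators went from a ratio of 0.811 ± 0.0314 to 1.11 ± 0.00908. Against E2F7 and E2F8 they went from 3.83 ± 0.0195 to 2.53 ± 0.0792. Against the 3 pocket proteins the ratio was 1.01 in both groups (SD 0.0283 in control and 0.0176 in 4HC). Between the atypical repressors, E2F7 stood at 0.894, 0.765 and 0.745 times E2F8 in the controls and at 1.55, 1.66 and 1.48 times E2F8 in 4HC.

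**Figure D3:**
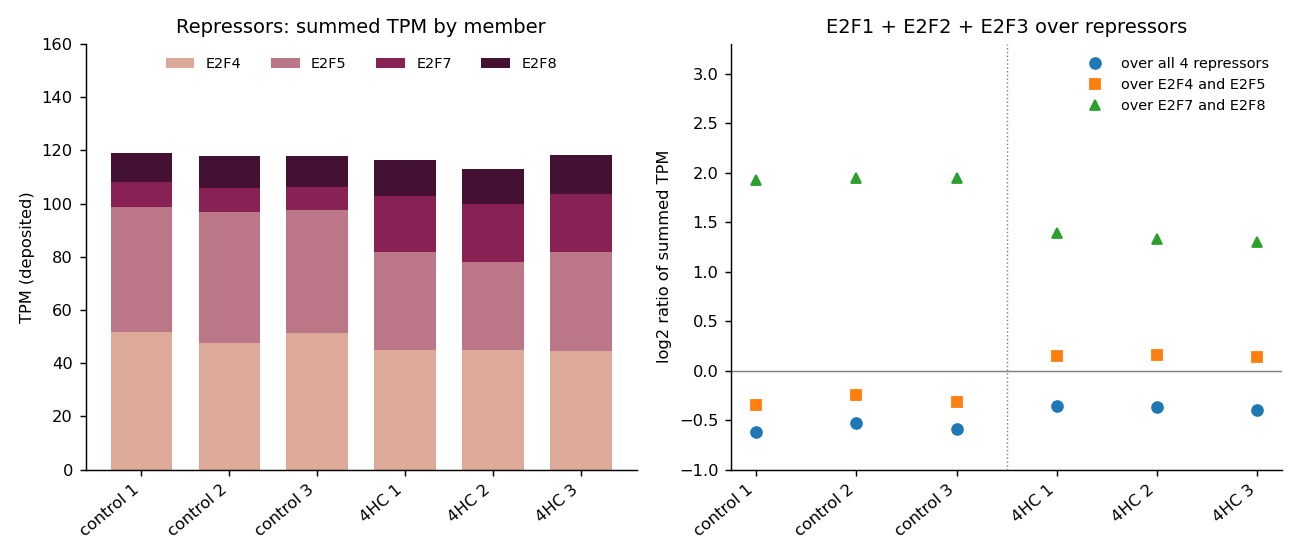
Left, deposited TPM of the 4 repressors stacked by member in each sample; right, log2 ratio of the summed TPM of E2F1, E2F2 and E2F3 to 3 choices of repressors in each sample. The height of the stack stays between 113 and 119 TPM while E2F7 and E2F8 take up more of it in 4HC, and the ratio rises over E2F4 and E2F5 and falls over E2F7 and E2F8.

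Expected counts were also given per transcript, of which 43 belonged to the members and 32 could be tested. Reads are divided by estimation between transcripts that share exons, so that the counts of such transcripts can scatter more. The biological coefficient of variation was 0.724 across transcripts and 0.0277 across genes. By the same limit, 1 of the 32 passed, against 1.29% of the 42216 transcripts tested. This was NM_203394, which held 90.2% of the E2F7 counts. Its expected counts were 462, 440 and 442 in the controls and 1097, 1094 and 1130 in 4HC, with a log2 fold change of 1.303 ± 0.044 (SE, adjusted p = 0.000756, edgeR). Its groups were far apart, with 4HC above control throughout.

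E2F8 reads fell mainly on a pair of transcripts that behaved differently. NM_024680, with 65.8% of the counts, had 289, 275 and 333 counts in the controls and 305, 239 and 304 in 4HC, with overlap. NM_001256372, with 27.7%, had 59.7, 108 and 66.8 counts in the controls and 134, 186 and 181 in 4HC, without overlap. The log2 fold change of the latter was 1.09 ± 0.299 (SE, adjusted p = 0.205, edgeR). It passed with DESeq2 (adjusted p = 0.0266). Whether the pair differed from each other was not tested.

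The E2F5 counts were spread over 3 transcripts, and NM_001083588 (44.1% of the gene) was the one whose groups were separate. It had 371, 350 and 365 counts in the controls and 272, 213 and 254 in 4HC, with a log2 fold change of -0.56 ± 0.11 (SE, adjusted p = 0.0961, edgeR). It too passed with DESeq2 (adjusted p = 0.00325). For E2F3 the division of reads was unstable. NM_001243076 had 76.6, 158 and 115 counts in the controls but 15.6, 11.7 and 161 in 4HC, while the counts of the whole gene stayed level. E2F1 and E2F4 had 1 transcript each, so that gene and transcript counts were the same and no reads were divided. Even so, neither passed the transcript test (adjusted p = 0.117 and 0.198, edgeR), although both passed the gene test (adjusted p = 0.000493 and 0.0123, edgeR). The SE was similar at both levels, 0.0452 and 0.049 for E2F1 and 0.041 and 0.0496 for E2F4 (transcript, then gene). Before adjustment, p was 0.00378 and 7.63e-05 for E2F1 and 0.0106 and 0.00331 for E2F4, in that order (edgeR). Adjustment ran over 42216 transcripts and over 12368 genes. Why these results differed was not tested. The reference mRNA of E2F2, NM_004091, was listed under 2 identifiers with equal counts, each with 26.1% of the gene.

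**Figure D4:**
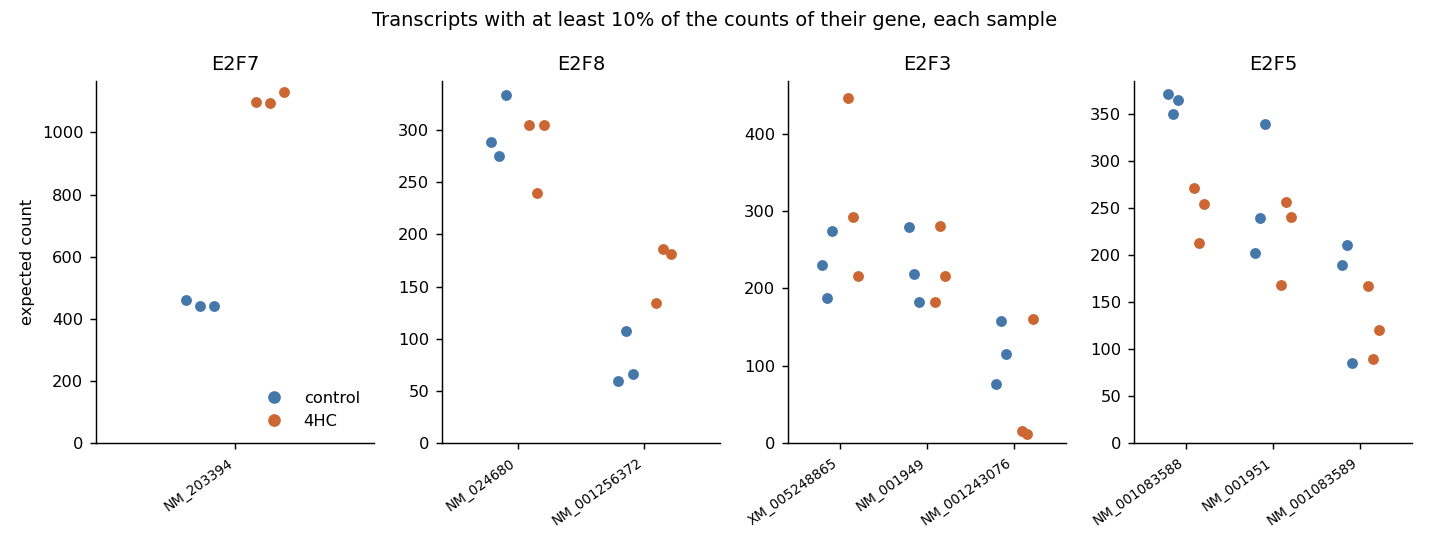
Expected counts (y axis from 0) of the transcripts with at least 10% of the counts of E2F7, E2F8, E2F3 and E2F5 in each control and 4HC sample. NM_203394 of E2F7 goes from between 440 and 462 to between 1094 and 1130 counts, and the transcripts of E2F3 overlap between groups.

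The partners and opponents of the members were counted from lists fixed by hand, with earlier results of these data known. The called shares of all these lists are therefore a description only. The gene test was the same as for the members, and 36.4% of all genes were called in it. DP proteins pair with E2F1 to E2F5 on DNA. TFDP1 stood at 161 ± 3.22 CPM in control and 170 ± 5.25 CPM in 4HC (adjusted p = 0.115, edgeR), whereas TFDP2 fell from 205 ± 2.90 to 183 ± 6.81 CPM (-0.16 ± 0.0361 on the log2 scale, SE). TFDP3 was too low to test. E2F6, a repressor that needs no pocket protein and is not among the members, stood at 36.3 ± 1.20 and 33.7 ± 1.35 CPM (adjusted p = 0.148, edgeR).

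MuvB is the core that joins RBL2, RBL1 and E2F4 in the DREAM complex and later joins MYBL2 and FOXM1 to activate genes of mitosis. The list of MuvB and MYB factors also held FOXM1 and the kinase gene DYRK1A. Of its 9 genes, 5 rose, 0 fell and 4 did not pass the test (55.6% called), with a median log2 fold change of 0.25. Among the MuvB subunits, LIN54 (log2 fold change 0.25, adjusted p = 0.000681, edgeR) and LIN37 rose. LIN9, LIN52 and RBBP4 did not pass, nor did DYRK1A. MYBL1 went from 17.8 ± 0.775 to 29.2 ± 1.43 CPM (log2 fold change 0.71), MYBL2 from 98.9 ± 3.25 to 130.5 ± 5.40 CPM (0.40) and FOXM1 from 119 ± 4.33 to 153 ± 1.50 CPM (0.37). The MuvB subunit LIN37 rose from 3.49 ± 0.539 to 4.81 ± 0.694 CPM (0.46), a low level whose call was lost with DESeq2 (adjusted p = 0.127) and without control replicate 2 (adjusted p = 0.132, edgeR), 4HC replicate 1 (adjusted p = 0.0525, edgeR) or 4HC replicate 2 (adjusted p = 0.142, edgeR).

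Upstream of the pocket proteins, 8 G1 cyclins and kinases were listed and 7 could be tested, of which 2 rose and 1 fell. This share of 42.9% was near the 36.4% of all genes tested. CCNE2 rose from 22.4 ± 0.222 to 33.9 ± 1.40 CPM (log2 fold change 0.60) and its kinase CDK2 from 91.0 ± 0.907 to 123 ± 3.70 CPM (0.44). CCND3, the most abundant D-type cyclin (740 TPM in control, against 1.45 for CCND1 and 0.0133 for CCND2), fell from 799 ± 32.0 to 655 ± 25.2 CPM (-0.29). Of 6 tested CDK inhibitors, 3 rose and 1 fell (66.7% called). CDKN1A, which encodes p21 and blocks CDK2, rose from 225 ± 7.25 to 783 ± 18.0 CPM (1.80 ± 0.0334, SE, adjusted p = 2.56e-42, edgeR). CDKN2C rose by 0.38 and CDKN1B fell by 0.28 on the log2 scale.

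A list drawn up for the degradation of E2F and pocket proteins held 6 genes, of which 50% were called, against 36.4% of all genes tested. MDM2 rose from 446 ± 3.87 to 879 ± 5.42 CPM (0.98) and CDC20 fell from 104 ± 1.12 to 65.7 ± 3.62 CPM (-0.66). CCNF passed narrowly at 0.14 (adjusted p = 0.049, edgeR) and 3 did not pass. The call of CCNF was lost under 12 of its 15 alternatives, with adjusted p-values of up to 0.286.

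The genes that E2F factors regulate fell into a G1/S list, for DNA synthesis, and a G2/M list, for mitosis. Of 38 G1/S genes, 29 rose, 2 fell and 7 did not pass the test (81.6% called), with a median log2 fold change of 0.32 beside 0.00 over all genes tested. PCNA, the sliding clamp of replication, rose from 275 ± 5.97 to 567 ± 6.82 CPM (1.04). CDT1, which loads the replicative helicase, rose from 40.7 ± 3.00 to 80.0 ± 2.26 CPM (0.97) and RRM2, a subunit of ribonucleotide reductase, from 245 ± 6.28 to 437 ± 9.11 CPM (0.84). The genes that fell were the helicase subunit MCM6 (-0.29) and the mismatch repair gene MSH6 (-0.15). PCNA is also a known p53 target, as are CDKN1A and MDM2.

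Of 31 G2/M genes, 7 rose, 11 fell and 13 did not pass (58.1% called), with a median log2 fold change of -0.07. The kinase gene PLK1 fell from 116 ± 0.966 to 69.9 ± 4.75 CPM (-0.73), CDC20 by 0.66 and the cyclin gene CCNB1 from 176 ± 7.57 to 119 ± 5.58 CPM (-0.57). The 7 that rose were CDC25C (0.31), KIF11 (0.26), AURKB (0.26), CDK1 (0.26), NUSAP1 (0.24), TOP2A (0.21) and CDC25B (0.13). Calls thus lay on either side in the members (6 higher and 2 lower), the G1/S list (29 and 2) and the G2/M list (7 and 11). The lists share genes, since CCNE1 and CCNE2 are counted among the G1 cyclins and the G1/S genes, and CDC20 among the degradation and the G2/M genes.

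**Figure D5:**
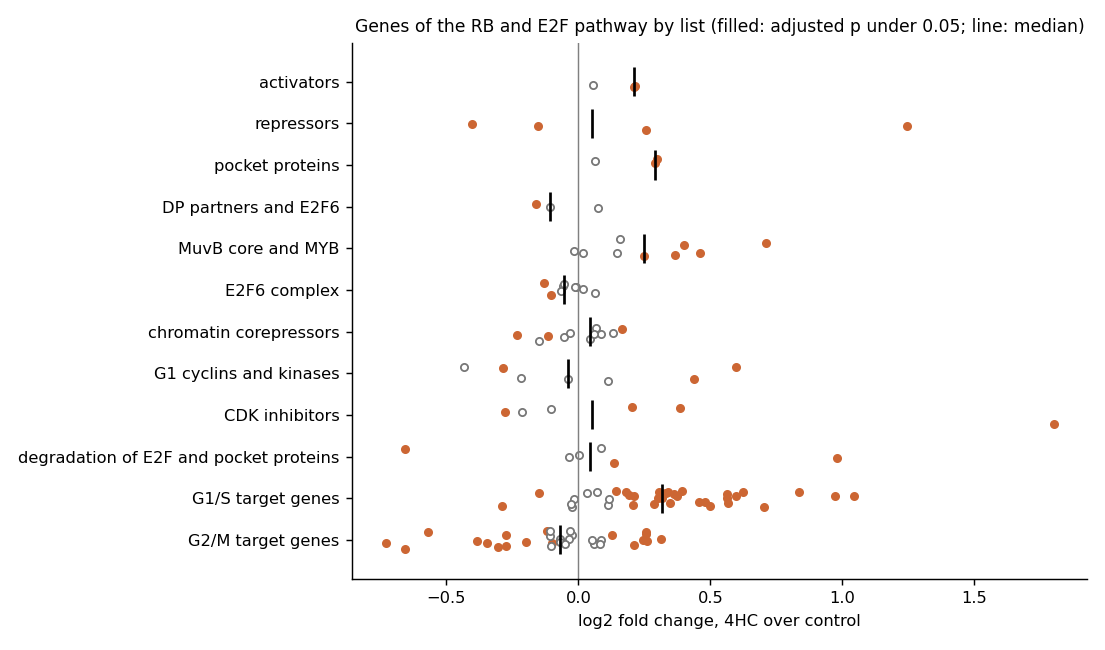
log2 fold change (x axis, 4HC over control) of each tested gene of the members and of 9 lists of the RB and E2F pathway, filled where the adjusted p-value is under 0.05, with the median of each list as a line. The G1/S list is centred at 0.32 with 29 of 38 genes called higher, and the G2/M list at -0.07 with calls on both sides.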

How the data were processed

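Bulk RNA-seq of 3 control and 3 4HC-treated COV434 samples was analysed. Per the labels, reads were filtered with SOAPnuke and processed on the Dr. Tom system, and the submitters' processing notes name HISAT2, Bowtie2, RSEM 1.3.1, DESeq2 1.4.5 and the build GRCh38.p13. The authors deposited expected counts per gene and per transcript without normalization, TPM (per length, summing to 1e+06) and FPKM. Their fold change, p-value and q-value columns were not used, nor was a second gene table of 27 columns with the same values as the first.

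Rounded expected counts entered edgeR 4.0.16 under R 4.3.3 (TMM, filterByExpr, quasi-likelihood test, condition as the only term). A gene or transcript was called at an adjusted p-value under 0.05. Alternatives used DESeq2 1.42.0, other scalings and filters, limma 3.58.1 on log2 TPM or FPKM, a replicate block and leaving out single samples. The procedure was tested on simulated data. Totals of 16133786 to 16702316 counts per sample set the counting precision, and intervals cover the spread between samples.

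The members were given by name and the lists were fixed by hand, with earlier results of these data known. Every member is named, with the 3 called genes of largest change per list, the genes CDKN1A, MDM2, E2F6, TFDP1, TFDP2, MYBL2 and FOXM1, and transcripts with at least 10% of their gene's counts. AMH, HSD17B1, INHA, LUM, DCN, COL1A1, PDGFRA, CCND1, CCND2, MCM6 and MSH6 were named after their values were seen. So were LIN54, LIN9, LIN52, RBBP4, DYRK1A, CDC25C, KIF11, AURKB, CDK1, NUSAP1, TOP2A and CDC25B. Promoters came from RefSeq (GRCh38.p14), and only bases before the start were searched. Figures were drawn with matplotlib 3.10.9 in Python 3.11.15.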

Additional observations from a re-analysis of the deposited data

How the results depend on the processing

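Of the 10 members, 9 kept direction and call under all 15 alternatives, and E2F4 under 13. The log2 fold change ranged from 1.13 to 1.28 for E2F7, from -0.43 to -0.37 for E2F5, from 0.26 to 0.32 for RB1 and from 0.26 to 0.35 for RBL1. With each sample left out in turn, between 1 and 2 members were called lower, 1 without control replicate 1 and 1 without control replicate 3. The activator to repressor balance, 0.20 as the log2 change of the TPM ratio, was -0.0643 on CPM, -0.60 with E2F7 and E2F8 as the only repressors and 0.12 with the pocket proteins added, and 0.18 to 0.23 with each sample left out. It moved with the scale because CPM gives long transcripts more weight than TPM.

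Of the member transcripts, 1 was called in the chosen fit, 4 with DESeq2 and 0 with a replicate block, and over all transcripts 546, 2492 and 0 were called. With a sample left out, 58 to 127 of all transcripts were called, and 932 with a minimum of 10 counts. The sign of 3 uncalled transcripts turned when a sample was left out. The log2 fold change of NM_001949 of E2F3 then ranged from -0.20 to 0.18, above 0 without 4HC replicate 1, 4HC replicate 3 or control replicate 1. That of NM_024680 of E2F8 ranged from -0.144 to 0.0163, above 0 without 4HC replicate 2, and that of NM_005611 of RBL2 from -0.0673 to 0.0502, below 0 without 4HC replicate 3 or control replicate 3. The replicate numbers did not pair the samples, since the correlations of deviations between samples of the same number were -0.0642, -0.00157 and 0.133 and not every sample correlated best with its own number. Under the replicate block NM_203394 of E2F7 had an adjusted p-value of 0.0865 (edgeR). At the gene level the replicate block left 8 members called and 66 of the other pathway genes, against 68 without it. Depth did not keep any member from being tested. The cause of these changes was not tested further.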

Other observations

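Corepressors that pocket proteins and E2F6 bring to promoters were counted from further lists. Of 11 chromatin corepressors, 1 rose, 2 fell and 8 did not pass the test, with a median log2 fold change of 0.04. The share called was 27.3%, below the 36.4% of all genes tested. The histone deacetylase gene HDAC2 fell from 232 ± 8.69 to 198 ± 7.08 CPM (-0.23 ± 0.0364 on the log2 scale, SE, adjusted p = 9.24e-07, edgeR). KDM5A, a histone demethylase first found as a partner of RB1, fell by 0.12 and the histone methyltransferase gene SUV39H1 rose by 0.17 on the log2 scale. Among 9 partners of E2F6, 0 rose, 2 fell and 7 did not pass (edgeR, 22.2% called), MAX at -0.13 and CBX3 at -0.10. The calls of KDM5A, SUV39H1, MAX and CBX3 were each lost under at least 5 alternatives.

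The genes whose profile over the 6 samples was most like that of E2F7 were BTG2, ANKRA2 and VWCE. They were taken from 10272 genes with a mean of at least 5 CPM over the 6 samples. Likeness was the root mean square difference between log2 CPM profiles, each centred on its own mean, and it was 0.0429 for BTG2, 0.0559 for ANKRA2 and 0.0603 for VWCE. BTG2, an antiproliferative gene, read 84.9, 82.6 and 82.3 CPM in the controls, against 194, 212 and 202 CPM in 4HC. Its log2 fold change was 1.28, beside 1.18 for ANKRA2, 1.23 for VWCE and 1.25 for E2F7. VWCE read 3.88, 3.63 and 3.14 CPM in the controls, against 7.85, 8.88 and 8.32 CPM in 4HC. It thus reached the mean of 5 CPM only through the 4HC samples. The measure takes in the difference between groups as well as the spread within them. Similar fold changes therefore follow from how these genes were chosen.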
